A study of Bos taurus
Mus musculus with 10 samples.

Results

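The angiomotins AMOT, AMOTL1 and AMOTL2, the LIM protein gene AJUBA, the upstream regulators WWC1, NF2 and PTPN14, and the kinases LATS1 and LATS2 were followed in bovine embryonic stem cells and in the mouse feeder cells beneath them. These 9 genes were chosen as regulators in the Hippo pathway. They were found by symbol among 27590 genes of the bovine table, and by NCBI gene ID among 31349 genes of the mouse table. All 9 passed the filter on low values in both tables, which was a normalised read count of at least 10 in at least 5 libraries.

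The culture of 10 wells held 5 stem cell lines, numbered 1, 2, 4, 8 and 11, which had been derived from blastocysts of day 7.5. Every well was grown on wild-type fibroblasts from CD-1 mouse fetuses of E13.5, whose division had been stopped by 2 h of mitomycin C, in mTeSR1 medium. One well of each line kept 2.5 µM IWR-1 (the group IWR) and the other had it washed out (the group IWRR), and RNA of both cell types was collected in 1 sample on day 1. IWR-1 inhibits the tankyrases, and cells that had never been exposed to it were not among the groups.

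In the Hippo pathway, the LATS kinases phosphorylate the co-activators YAP and TAZ and thereby keep them out of the nucleus. NF2 (merlin) and WWC1 (KIBRA) bring LATS to the cell membrane, where it is activated, and PTPN14 binds both WWC1 and YAP. Angiomotins are scaffolds of cell junctions and actin that hold YAP in the cytoplasm. AJUBA acts the other way, since it binds LATS and restrains it. Several of these genes, among them AMOTL2, LATS2 and PTPN14, are themselves induced by YAP and TAZ in many cell types. Angiomotin proteins are also substrates of the tankyrases, which mark them for degradation.

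Bovine reads numbered 48064953 to 64345738 per library and mouse reads 17101894 to 35223039. The pluripotency genes POU5F1 and SOX2 stood at 18294 to 62019 and 13371 to 22072 normalised reads over the 10 bovine libraries, so the labelled stem cells carried their defining markers. Of 11 fibroblast markers 9 were highest in line 4 in both media, and LUM and TWIST2 were not. Examples picked after their values were seen were COL3A1, with up to 29627 normalised reads in line 4 and at most 537 in the other lines, and POSTN, with up to 4097 and at most 19.5. Mouse reads made up 21.2% to 42.3% of a library's reads. Line 4 had the highest share in both media, at 42.3% with IWR-1 and 41.4% without it, and the fewest bovine reads. Whether its fibroblast marker values are tied to that share was not tested. The IWRR well of each line had the lower share, with differences of -0.92 to -6.63 percentage points. Wells of a line shared cells and differed in medium. The p-values rest on the spread of the within-line changes, which also holds differences between single wells.

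Removal of IWR-1 raised AMOTL2, AJUBA and WWC1 among the bovine genes, 3 of 9, while 0 fell and 6 were not called (limma with the line as a block, Benjamini-Hochberg adjusted p under 0.05). Of all 18506 bovine genes tested, 0.886% rose and 0.0648% fell by the same rule. Among the mouse genes Amotl2, Ajuba and Lats2 rose, 0 fell and 6 were not called, and of all 15871 mouse genes tested 2.14% rose and 2.05% fell. Higher values without IWR-1 in 5 of 5 lines were found for 4 of the 9 genes in each species, against 6.2% of all bovine and 7.83% of all mouse genes tested. At an unadjusted p under 0.05, 4 of the 9 genes were higher and 0 lower in either table, where 6.32% of all bovine genes tested were higher and 3.78% lower, and 7.89% of all mouse genes were higher and 8.32% lower. The median log2 fold change of the 9 was 0.15 in the bovine table, where that of all tested genes was 0.00, and 0.20 in the mouse table, where that of all tested genes was also 0.00. Because whole wells were sequenced, more RNA of a gene per cell and more cells that express it cannot be told apart.

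**Figure D1:**
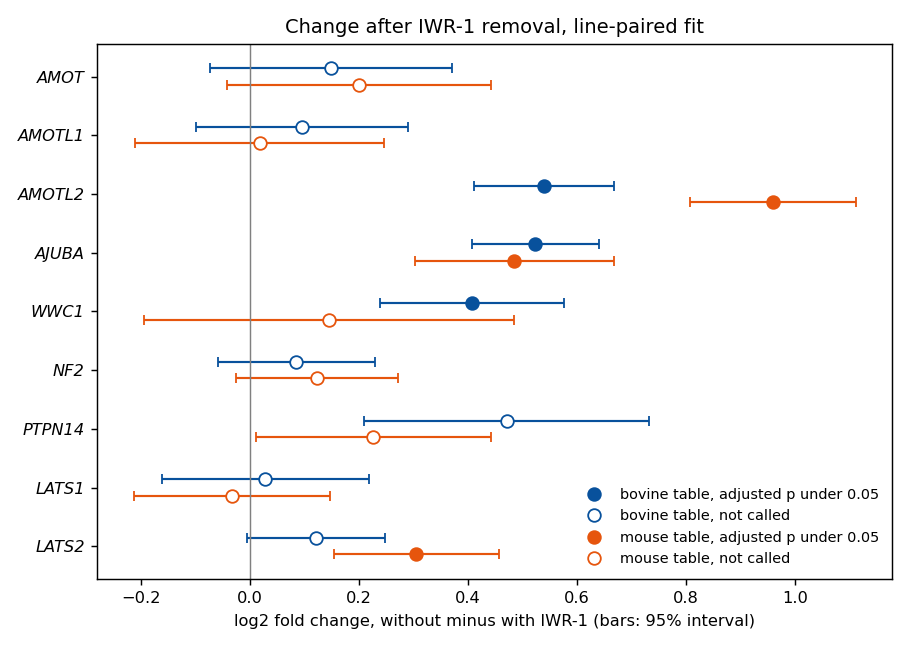
Log2 fold change of each gene (x axis, medium without minus medium with IWR-1) in the bovine and mouse tables, with 95% intervals of the line-paired limma fit; filled points passed an adjusted p of 0.05. AMOTL2 and AJUBA lie to the right of 0 in both tables, WWC1 passed in the bovine table and LATS2 in the mouse table.

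Among the angiomotins, AMOTL2 was the member that rose in both tables. In the bovine table (gene ID 538514) it stood with IWR-1 at 7350 normalised reads in line 1, 7569 in line 2, 8173 in line 4, 6860 in line 8 and 8974 in line 11. Without IWR-1 it stood at 10883, 12368, 11828, 9199.95 and 12413 in the same order. The lowest well without IWR-1 was above the highest well with it, as it was for 0.0702% of all bovine genes tested. Its mean went from 7785 ± 815 to 11338 ± 1345 (SD, n = 5), a log2 fold change of 0.54 ± 0.06 SE, or 1.45-fold with a 95% interval of 1.33 to 1.59 (limma adjusted p = 0.0027). It was rank 14 of all bovine genes by p.

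Mouse Amotl2 stood with IWR-1 at 409 normalised reads in the well of line 1, 569 in that of line 2, 876 in line 4, 632 in line 8 and 1489 in line 11. Without IWR-1 it stood at 879, 987, 1815, 1167 and 2925. Each well was above its partner, but the media overlapped (no overlap was seen in this direction for 0.258% of all mouse genes tested), since the feeders under line 11 were highest in both. Amotl2 rose by 0.96 ± 0.07 SE on the log2 scale, a fold of 1.95 with a 95% interval of 1.75 to 2.16 (limma adjusted p = 6.88e-05), and was rank 3 of all mouse genes by p. Both tables were scaled separately, so the sizes of 0.54 and 0.96 are given side by side and their difference was not tested. The call for AMOTL2 held in each of the 5 fits that left out 1 line, with bovine values of 0.50 to 0.57 and mouse values of 0.93 to 1.00.

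Its paralogs did not pass the test. AMOT (gene ID 535509), the founding member of the family, was at 0.15 ± 0.10 SE in the bovine table, with a 95% interval from -0.07 to 0.37. It varied between lines more than between media: line 4 had 6429 normalised reads with IWR-1 and 6132 without it, while the other lines lay between 2224 and 3246 with it and between 2308 and 4565 without it. Of the sum of squares of its log2 values, 90.4% lay between lines and 2.12% between media, whereas for AMOTL2 the shares were 20.6% and 76.9%. AMOTL1 (gene ID 541209) ranged from 9005 to 13933 with IWR-1 and from 7444 to 19102 without it, with a log2 fold change of 0.10 ± 0.09 SE and an interval from -0.10 to 0.29. In the feeders, Amot was at 0.20 ± 0.11, with an interval from -0.04 to 0.44, and Amotl1 at 0.02 ± 0.10, with an interval from -0.21 to 0.25.

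The angiomotins were then compared with one another within lines. In the bovine table the log2 change of AMOTL2 exceeded that of AMOT in 5 of 5 lines, by a mean of 0.39 ± 0.24 (SD, n = 5 lines; exact two-sided sign-flip permutation test, p = 0.063). It exceeded that of AMOTL1 in 5 of 5 lines by 0.44 ± 0.17 (exact permutation p = 0.063). The mouse differences were 0.76 ± 0.43 against Amot and 0.94 ± 0.41 against Amotl1, again in 5 of 5 lines (exact permutation p = 0.063 each). That p is the smallest that 5 lines allow, and adjusted over the 6 paralog differences tested it was 0.075, so none passed 0.05. The smallest of these differences was that between Amotl2 and Amot under line 2, at 0.11.

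**Figure D2:**
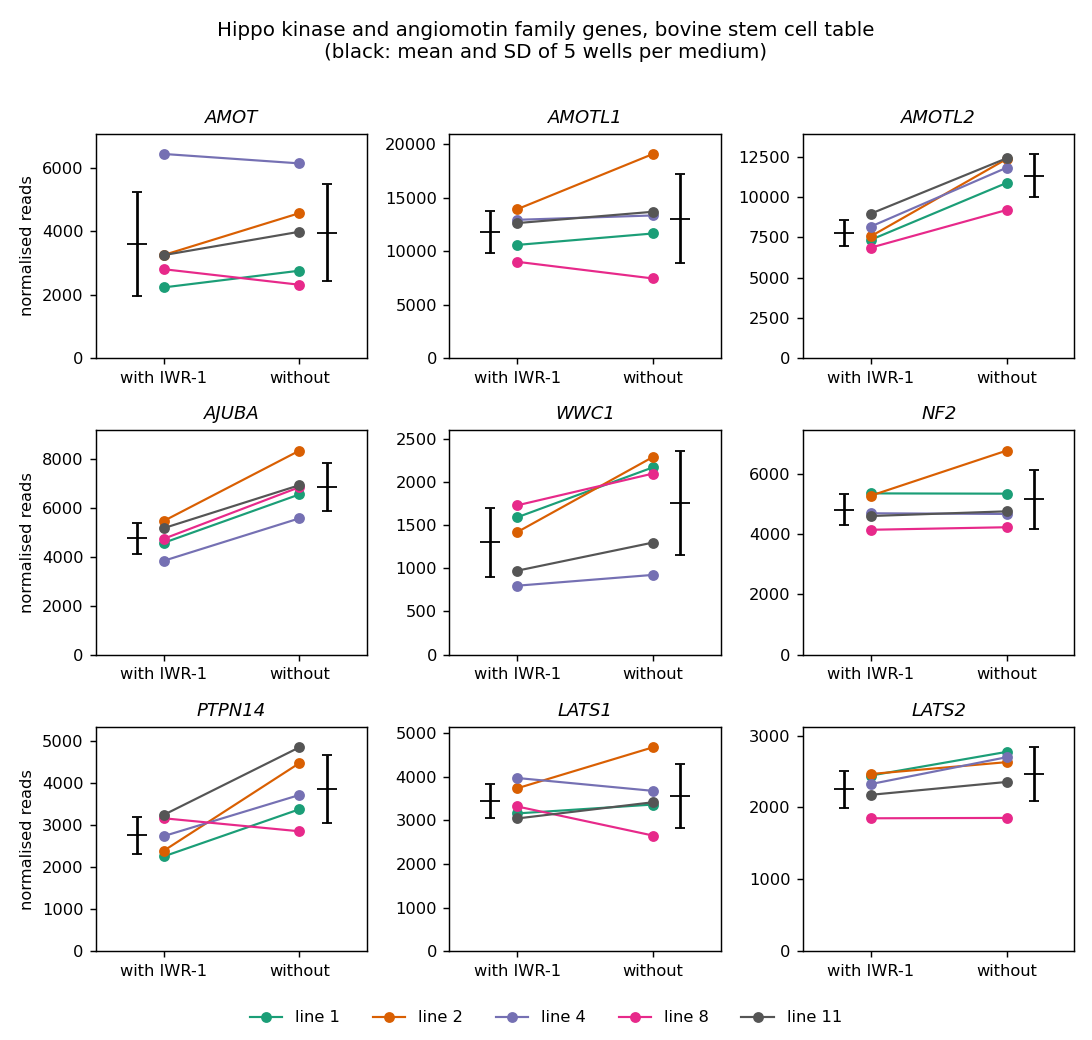
Normalised reads of the 9 genes in the bovine table (y axis, from 0) with and without IWR-1, 1 point per well, with lines joining the wells of a stem cell line; black marks are the mean and SD of 5 wells. AMOTL2 and AJUBA are higher without IWR-1 in every line with no overlap between media, and AMOT is highest in line 4.

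AJUBA, the LATS-binding LIM protein gene, rose in both tables. Bovine AJUBA (gene ID 519937) stood with IWR-1 at 4566 normalised reads in line 1, 5458 in line 2, 3832 in line 4, 4730.1 in line 8 and 5164 in line 11. Without IWR-1 it stood at 6542, 8330 (line 2), 5565, 6838 and 6919. The wells of the media did not overlap. The mean went from 4750.1 ± 623 to 6839 ± 992 (SD, n = 5), with a log2 fold change of 0.52 ± 0.05 SE (limma adjusted p = 0.00194). Its changes lay between 0.42 in line 11 and 0.61 in line 2, and only 0.89% of the sum of squares of its log2 values was left after line and medium.

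Mouse Ajuba stood with IWR-1 at 359 normalised reads in the well of line 1, 349.9 in line 2, 594 in line 4, 310.2 in line 8 and 567 in line 11. Without IWR-1 it stood at 475, 507, 856, 373 and 920.1. Each of the 5 pairs was higher without IWR-1, and the media overlapped because lines 4 and 11 were high in both. The log2 fold change was 0.49 ± 0.08 SE (limma adjusted p = 0.00676). Without line 11 the call ended, at a log2 fold change of 0.43 (limma adjusted p = 0.0594), whereas the bovine call held in all 5 fits that left out 1 line.

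WWC1, whose product KIBRA acts with merlin to activate LATS, rose in the bovine table. Bovine WWC1 (gene ID 520730) stood with IWR-1 at 1590.4 normalised reads in line 1, 1419 in line 2, 798 in line 4, 1729 in line 8 and 972 in line 11, and without IWR-1 at 2169, 2289, 923, 2097 and 1298. Lines 4 and 11 were low in both media, so the media overlapped, and each line was higher without IWR-1. The log2 fold change was 0.41 ± 0.08 SE, or 1.33-fold with a 95% interval of 1.18 to 1.49 (limma adjusted p = 0.0396). The call ended whichever line was left out, with log2 fold changes of 0.34 to 0.46 and limma adjusted p from 0.0502 without line 2 to 0.197 without line 11. Among genes of the same family fixed on the list of upstream regulators, WWC2 rose by 0.35 ± 0.06 SE (limma adjusted p = 0.0326) and WWC3 was at 0.31 ± 0.08 (limma adjusted p = 0.123), both higher in 5 of 5 lines.

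Mouse Wwc1 was the least covered of the 18 measurements, with 46 to 174 reads per library. It ranged from 54.1 to 99.0 normalised reads with IWR-1 and from 56.6 to 131 without it. The log2 fold change was 0.15 ± 0.16 SE, with an interval from -0.19 to 0.48 that holds both no change and the bovine value. It was lower without IWR-1 in the well of line 2, at -0.29, and higher in the other 4.

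The membrane scaffold NF2 and the phosphatase PTPN14 were not called in either table. NF2 was at 0.09 ± 0.07 SE in the bovine table (gene ID 540479; interval from -0.06 to 0.23), and it moved in line 2, where it went from 5268 to 6760.2 normalised reads, against changes of -0.01 to 0.05 in the other lines. Mouse Nf2 was at 0.12 ± 0.07 and higher without IWR-1 in 5 of 5 pairs, though by only 0.0036 under line 8. Its largest change, 0.36, was also in the well of line 2.

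Bovine PTPN14 (gene ID 518798) stood with IWR-1 at 2255 normalised reads in line 1, 2389 in line 2, 2737 in line 4, 3161 in line 8 and 3241 in line 11, and without IWR-1 at 3375, 4471, 3714, 2851 and 4847. It was higher without IWR-1 in 4 lines and lower in line 8. The log2 fold change of 0.47 ± 0.12 SE did not pass (limma adjusted p = 0.118), although its size was between those of WWC1 and AJUBA. Without line 8 it was called, at 0.63 (limma adjusted p = 0.00904). Mouse Ptpn14 gave the same pattern: it was at 0.23 ± 0.10 SE (limma adjusted p = 0.278), lower in the well of line 8, from 5399 to 4419.7 normalised reads, and higher in the other 4. Without the pair of line 8 it was called, at 0.36 (limma adjusted p = 0.00906).

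**Figure D3:**
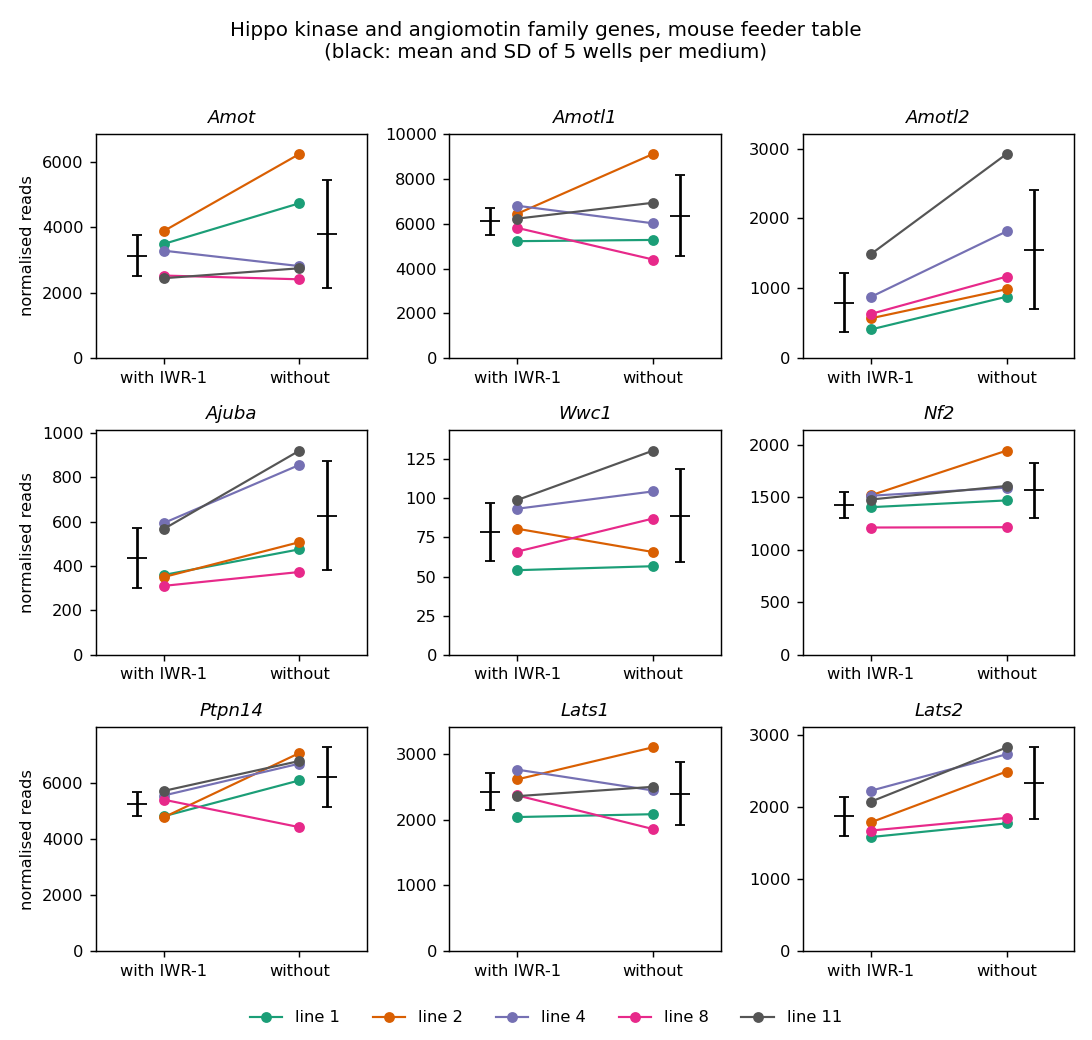
Normalised reads of the 9 genes in the mouse table (y axis, from 0), 1 point per well, named by the stem cell line grown on the feeders; black marks are the mean and SD of 5 wells per medium. Amotl2, Ajuba and Lats2 are higher without IWR-1 in every pair, with the media overlapping because the wells of line 11 and line 4 are high in both. Nf2, which was not called, is also higher in every pair, and its media overlap.

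Of the LATS kinases, which phosphorylate YAP and TAZ directly, LATS2 was called in the mouse table and LATS1 in neither. Mouse Lats2 stood with IWR-1 at 1582 normalised reads in the well of line 1, 1786 in line 2, 2223 in line 4, 1672 in line 8 and 2072 in line 11, and without IWR-1 at 1771, 2489, 2728, 1847 and 2822. Each pair was higher without IWR-1, and the media overlapped. The log2 fold change was 0.31 ± 0.07 SE, or 1.24-fold with a 95% interval of 1.11 to 1.37 (limma adjusted p = 0.0292). The call ended without line 1, 4 or 11 (limma adjusted p = 0.0707, 0.122 and 0.174), with log2 fold changes of 0.26 to 0.35 over the 5 fits.

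Bovine LATS2 (gene ID 508208) ranged from 1849 to 2465 normalised reads with IWR-1 and from 1854 to 2773 without it. It was higher without IWR-1 in 5 of 5 lines, but by 0.12 ± 0.06 SE, with an interval from -0.0047 to 0.25 (limma adjusted p = 0.527). LATS1 was near 0 in both tables, at 0.03 ± 0.09 in the bovine one (gene ID 535935; interval from -0.16 to 0.22) and at -0.03 ± 0.08 in the mouse one (interval from -0.21 to 0.15). Within lines the change of mouse Lats2 exceeded that of Lats1 in 5 of 5 by 0.34 ± 0.15 (SD, n = 5; exact permutation p = 0.063). The bovine difference was 0.09 ± 0.24, positive in 3 of 5 (exact permutation p = 0.375).

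Line 2 had the largest and line 8 the smallest median change of the 9 genes in both tables. In line 2 all 9 bovine genes were higher without IWR-1, and in line 8 only 5 were. Of the mouse genes 8 were higher under line 2 and 5 under line 8. The median change of the 9 was 0.49 in line 2 and 0.00 in line 8 among bovine genes, and 0.50 and 0.00 among mouse genes. The like share and median over all tested genes of a single line were not computed, so these values stand without that background. The 4 genes lower in line 8 were AMOT, AMOTL1, LATS1 and PTPN14 in both tables, with bovine changes of -0.28, -0.27, -0.32 and -0.15 and mouse changes of -0.07, -0.40, -0.35 and -0.29. AMOTL2 and AJUBA were higher in that line too, by 0.42 and 0.53 in the bovine table. The bovine and mouse RNA of a well came from 1 extraction and 1 library, and how many reads align to both genomes, and so could enter both tables, was not tested. Of the bovine and mouse reads of AMOTL2 in a well, 4.76% to 22.8% were mouse reads. The share was 3.92% to 23.4% for AJUBA, 33.8% to 66.0% for LATS2 and 53.7% to 80.0% for PTPN14.

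**Figure D4:**
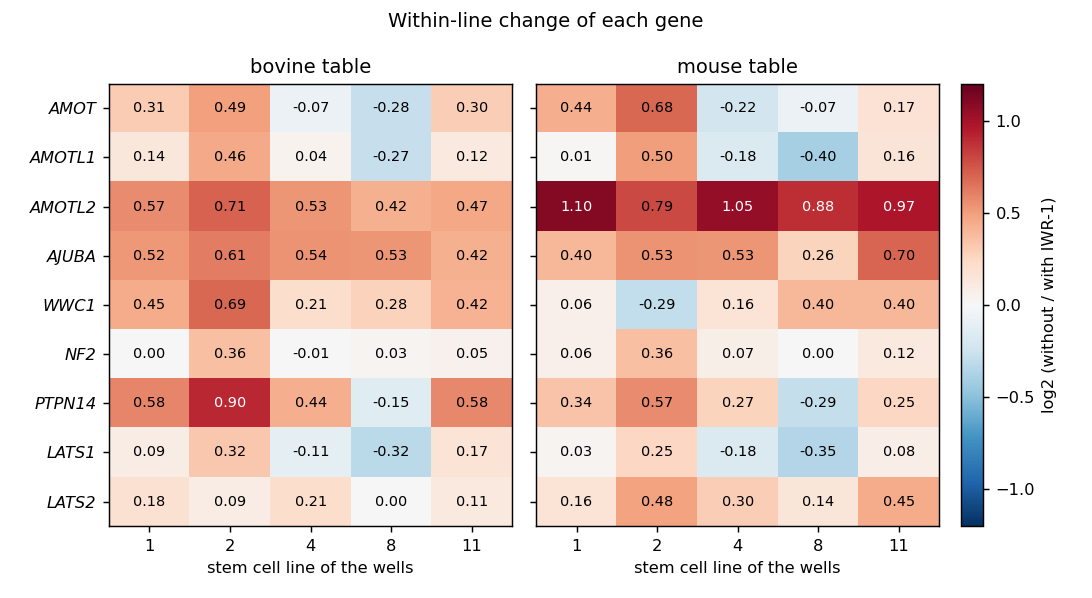
Within-line log2 change of each gene (rows) for the wells of each stem cell line (columns) in the bovine and the mouse table; red is higher and blue lower without IWR-1, and the value is printed in each cell. AMOTL2 and AJUBA are positive in all 10 cells each, and AMOT, AMOTL1, LATS1 and PTPN14 are negative in line 8 in both tables.

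The change within a line also moved with the length of a gene on the genome. Over 17222 bovine genes with a known genomic span, Spearman's rho between span and change was 0.34 in line 2, 0.19 in line 1, 0.04 in line 11, -0.15 in line 4 and -0.27 in line 8; genes of a line share its 2 libraries. The longest 20% of genes had a median change of 0.19 in line 2 and -0.12 in line 8, and the shortest 20% of -0.18 and 0.16. PTPN14, AMOTL1 and WWC1 are long, at percentiles 93.1, 93.0 and 91.7 of span, whereas AMOTL2 and AJUBA are at 46.0 and 30.6. NF2, AMOT, LATS2 and LATS1 are at 79.3, 77.8, 71.8 and 64.7. In a fit chosen after these values were seen, the trend on span was taken out of each bovine library. AMOTL2 was then at 0.53 ± 0.05 SE and AJUBA at 0.52 ± 0.05 (limma adjusted p = 0.000516 each), and WWC1 at 0.38 ± 0.06 (limma adjusted p = 0.00887). PTPN14 passed, at 0.44 ± 0.08 SE (limma adjusted p = 0.0231), and its change in line 8 was -0.02 in place of -0.15. AMOT, AMOTL1 and LATS1 remained negative in line 8, at -0.20, -0.14 and -0.29. Spans of mouse genes were not used here.

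The rest of the pathway was read in the bovine table, where genes have names. Of all bovine genes tested, 0.886% rose and 0.0648% fell, which is the background of each list count below. Of the 5 other members of the core kinase module, the MST kinases and the adaptors that act with them on LATS, 0 rose and 0 fell: STK3 was at 0.12 ± 0.07 SE, STK4 at -0.09 ± 0.11 and MOB1B at -0.03 ± 0.06. Their median log2 fold change was -0.02. Among 20 other upstream regulators 2 rose, WWC2 and the Ajuba relative WTIP (0.37 ± 0.06 SE, limma adjusted p = 0.0207), 0 fell and 18 were not called, with a median of 0.04. LIMD1, another Ajuba relative on that list, was not called, at 0.15 ± 0.12 SE (limma adjusted p = 0.786), and changed by -0.46 in line 8.

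Of 8 effectors and cofactors 2 rose, 0 fell and 6 were not called (median 0.16), where 0.886% of all bovine genes tested rose and 0.0648% fell. YAP1 was at 0.04 ± 0.06 SE, with an interval from -0.08 to 0.17, and WWTR1, which encodes TAZ, at 0.05 ± 0.05, with an interval from -0.07 to 0.17. Those that rose were TEAD4, a DNA-binding partner of YAP, with 1318 ± 45.6 normalised reads in IWR wells and 2413 ± 605 in IWRR wells (SD, n = 5; a log2 change of 0.84 ± 0.10 SE with limma adjusted p = 0.0054), and the TEAD cofactor VGLL3, by 0.41 ± 0.08 SE (limma adjusted p = 0.041). VGLL3 stood in line 4 at 23656 normalised reads with IWR-1 and 24586 without it, a change of 0.06, against at most 6712 in the other lines. TEAD3 was at 0.22 ± 0.07.

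Of 7 genes for the turnover of angiomotin proteins 0 rose and 0 fell (median -0.02). The tankyrase genes TNKS and TNKS2 were at -0.16 ± 0.09 SE and -0.07 ± 0.06, and the ubiquitin ligase genes NEDD4L and NEDD4 at 0.20 ± 0.05 and 0.30 ± 0.12. These values are of RNA, and neither tankyrase activity nor angiomotin protein was measured.

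Among 18 tested YAP/TAZ target genes other than the 9, 4 rose, 14 did not pass and 0 fell. Of all bovine genes tested, 0.886% rose. The log2 fold change was above 0 for 17 of the 18 targets (median 0.20) and for 48.4% of all bovine genes tested. The targets that rose were CCN1, CCN2, GADD45A (0.79 ± 0.11 SE) and, outside the rule for named genes and named after its values were seen, ANKRD1 (1.92 ± 0.31). With IWR-1, ANKRD1 stood at only 1.01 normalised reads in line 1 and 8.41 in line 2, against 183 in line 4. Its changes lay between 1.02 in line 4 and 3.20 in line 11. The changes of the matricellular genes CCN1 and CCN2 are set beside those of AMOTL2. CCN1 changed by 0.59 on the log2 scale in line 2 and by at least 0.92 in each other line. In lines 1, 2, 4, 8 and 11, CCN2 changed by 0.82, 0.83, 0.74, 0.75 and 0.78, and AMOTL2 by 0.57, 0.71, 0.53, 0.42 and 0.47. The level of CCN2 in line 4 was 6038 normalised reads with IWR-1 and 10063 without it, against at most 962 in the other lines. Of the targets, 7 were highest in line 4 in both media. The line with the smallest change in CCN1, line 2, had the largest in AMOTL2.

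After each line's mean was taken out, the log2 values most like those of AMOTL2 over the 10 libraries were of PHLDB1, AACS, FNDC5, LIN28A and SLC39A1, with Pearson's r between 0.992 and 0.996 among 14655 named genes. Such values share the 2 wells of each line, so r is high for a gene that moves by like amounts in the lines, whatever the amount: AACS was at 0.11 ± 0.05 SE and was not called. AJUBA was rank 7 (r = 0.99), CCN2 rank 10, WWC1 rank 72 (r = 0.97) and CCN1 rank 302 (r = 0.92). PTPN14 was rank 525, LATS2 rank 618 and NF2 rank 2137, followed by the paralogs AMOT at rank 2508 (r = 0.58) and AMOTL1 at rank 2889 (r = 0.53), and by LATS1 at rank 5105 (r = 0.26).

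Markers of other cell types were read beside these changes, where 0.886% of all bovine genes tested rose and 0.0648% fell. Of 11 fibroblast markers 0 were called, and the log2 fold change was above 0 for 8 (median 0.22). Those with the smallest p were higher without IWR-1 in 5 of 5 lines each: PDGFRB at 0.56 ± 0.12 SE (limma adjusted p = 0.0613), COL1A1 at 0.36 ± 0.08 (limma adjusted p = 0.0711) and THY1 at 0.30 ± 0.09 (limma adjusted p = 0.247). The markers below 0 were COL1A2 at -0.30 ± 0.10 SE (limma adjusted p = 0.2995), DCN at -0.24 ± 0.13 and TWIST2 at -0.08 ± 0.20. COL1A2 and DCN were lower without IWR-1 in 4 of 5 lines each. The summed level of the 11 markers was 8867 to 113676 normalised reads with IWR-1 and 11070 to 125294 without it, and outside line 4 at most 28706 and 40225. POSTN was listed at 0 in at least 1 library. The part of these markers in the results was not tested. On the list of trophectoderm and epithelial markers the keratin genes KRT8, KRT18 and KRT19 rose, 0 fell and TFAP2C was not called, while CDX2, GATA2, GATA3 and ELF5 were below the filter. CDX2 stood at 86.6 normalised reads in line 4 without IWR-1, a single well, against 1.19 with it and at most 0.97 in the other lines. GATA2, GATA3 and ELF5 reached at most 12.6, 32.1 and 5.83. The summed level of that list was 4042 to 33804 with IWR-1 and 8917 to 64707 without it, and its part in the results was not tested. Of 9 pluripotent cell markers NANOG rose (0.33 ± 0.06 SE, limma adjusted p = 0.0411), 0 fell and 8 were not called. The log2 fold change was above 0 for 4 of the 9 (median -0.01). DNMT3B was at -0.27 ± 0.07 SE and lower without IWR-1 in 5 of 5 lines (limma adjusted p = 0.107). LIN28A was at 0.17 ± 0.06 and higher in 5 of 5 (limma adjusted p = 0.264).

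All calls for the 9 genes rest on the comparison within lines. Without the line as a block limma called 0 of them in either table, with 3 bovine and 1 mouse gene at an unadjusted p under 0.05, and when the percentage of mouse reads per well was added beside the line it also called 0, with 2 bovine and 1 mouse gene at that level. In the covariate fit the log2 fold changes were 0.58 for bovine AMOTL2, 0.58 for bovine AJUBA and 0.29 for bovine WWC1, and 1.06, 0.38 and 0.18 for mouse Amotl2, Ajuba and Lats2.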

How the data were processed

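Poly(A) RNA of 10 co-culture wells was sequenced. Per the labels, reads were mapped separately to ARS-UCD1.3 and GRCm39, and the submitters' processing notes name HISAT2 2.0.5, featureCounts 1.5.0-p3, StringTie 1.3.3b and fastp, with no roles. For each species the authors deposited a table of normalised signal, genes by libraries. Every positive value was a whole multiple of 1 step per library (100% of values, tolerance 0.01 reads), so reads were recovered by division; no header states this scaling. Left out were 2 mouse columns that match no sample label.

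Symbols came from RefSeq's genes of ARS-UCD2.0, where 24660 of 27590 bovine gene IDs were found; since the assembly differs, no coordinates are given. The 9 mouse genes were matched by NCBI gene ID from a list written for this work, because the files pair no names with IDs.

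Genes reaching 10 in at least 5 libraries were tested on log2(value + 1) in limma 3.58.1 (R 4.3.3), with its variance trend and with medium and line as terms. This scale understates changes of low genes. Benjamini-Hochberg adjustment ran over all tested genes of a table, at a threshold of 0.05. Each p is from that fit unless named exact. Per the labels, wells that share a number hold 1 cell line, which pairs them; their deviations from the medium means had correlations of 0.617 to 0.883 (bovine) and 0.488 to 0.725 (mouse). edgeR 4.0.16 and DESeq2 1.42.0 on recovered reads, other pseudocounts, filters and scalings, and fits without each line were alternatives.

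The 9 genes, the lists and the tests were chosen with earlier results of these data known. Named beside the 9 are up to 3 genes per list with the smallest p, CCN1, CCN2, TNKS, TNKS2, YAP1 and WWTR1, and the 5 genes most like AMOTL2 within lines. Cell type markers named outside that rule (POU5F1, SOX2, COL1A2, COL3A1, DCN, POSTN, LUM, TWIST2, TFAP2C, CDX2, GATA2, GATA3 and ELF5) serve as checks of the labelled cells or name the members of a small count. Of these, COL1A2, COL3A1, DCN, POSTN, LUM and TWIST2 were chosen after their values were seen, as were ANKRD1 and LIMD1.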

Additional observations from a re-analysis of the deposited data

Results flagged for a closer look

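Of 54 groups of 5 values checked for a value far from the others (the 9 genes by medium and table, and their within-line changes), 2 had one; chance gives about 1 in 20. Bovine AMOT in line 4 with IWR-1, at 6429 normalised reads, lay far above the other 4 lines, which reached 3246 at most. The within-line change of bovine NF2 in line 2, at 0.36 on the log2 scale, lay far above those of the other 4 lines, which reached 0.05 at most. With the span trend removed, NF2 changed by 0.24 in line 2 and by -0.05 to 0.11 in the other lines. The check was not run on those values.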

How the results depend on the processing

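The bovine table gave 176 called genes with the line as a block, and 665 mouse genes were called. Without the replicate block limma called 0 genes in each, with 105 bovine and 584 mouse genes at an unadjusted p under 0.05, and 0 of the 9 in either table. With the mouse share as covariate it called 0 genes in each, with 456 and 687 at that level, and 0 of the 9. Without a filter on low values 53 bovine and 329 mouse genes were called. DESeq2 called 422 bovine genes, and the fit with the span trend removed, chosen after the data were seen, 301. With 1 line left out, 31 to 184 bovine and 269 to 936 mouse genes were called, the lowest without line 11 in both tables, and 1 to 4 of the 9 mouse genes. Of the 9 bovine genes 3 were called, and 2 to 4 under the other alternatives with the block and without the covariate.

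LATS1 and AMOTL1, near 0, changed sign in some fits. With the mouse share as covariate, bovine LATS1 was at -0.10 and mouse Amotl1 at -0.17. With 1 line left out, bovine LATS1 ranged from -0.0447 to 0.12, mouse Amotl1 from -0.10 to 0.12 and mouse Lats1 from -0.10 to 0.0464. The cause was not tested. Without a filter the calls for bovine WWC1 (adjusted p = 0.0915) and mouse Lats2 (adjusted p = 0.0831) in limma also ended, and DESeq2 called bovine PTPN14 (adjusted p = 0.00381). The paralog differences moved by less than their SD between lines under both other pseudocounts and with any 1 line left out. Mouse Wwc1 had 46 to 174 reads per library, the fewest of the 9 genes in either table.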
